A study of Mus musculus with 12 samples.

Results

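Liver-enriched transcription factors are the proteins that together hold the gene program of the hepatocyte, and 9 of them were followed here at the level of their mRNA: Hnf4a, Foxa1, Foxa2, Foxa3, Cebpa, Cebpb, Onecut1, Nr5a2 and Prox1. The members were the rows of the count tables that carried these gene names, 9 of the 54532 genes in each table. All 9 were found, and each passed the filter on low counts in every comparison. The libraries came from whole liver of male mice carrying floxed alleles of Pparg (PPARγ flox/flox) that were injected at 8 weeks of age with an adeno-associated virus of serotype 8. In the knockout (KO) group the virus carried Cre under the thyroxine-binding globulin (TBG) promoter, which is active in hepatocytes, so that deletion was directed to hepatocytes and other liver cells kept intact alleles. In the control group, called wild-type (WT), floxed littermates received the same vector type with eGFP in place of Cre. Every mouse then ate a fast-food diet (FFD) rich in saturated fat, cholesterol and sucrose, with fructose and glucose in the drinking water, for 2 or 5 months. Each of the 4 groups (WT and KO at 2 months, WT and KO at 5 months) had 3 libraries, and no mice on a regular diet are included here. The labels number the libraries of a group as repeats and do not say whether each came from its own mouse, so p-values measure the spread between these libraries.

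HNF4α is a nuclear receptor that occupies the control regions of a large share of hepatocyte genes. The FOXA proteins open compacted chromatin for other factors, and the C/EBP proteins are leucine zipper factors, of which C/EBPα is tied to metabolic genes of the quiescent hepatocyte and C/EBPβ to the acute phase and stress responses. HNF6 (Onecut1), LRH-1 (Nr5a2) and PROX1 complete the set: the first acts in biliary and hepatocyte development, the second in bile acid and cholesterol metabolism, and the third as a co-repressor of HNF4α and LRH-1. These factors bind each other's promoters and enhancers, and the mRNA of the set is often read together as a measure of hepatocyte identity. The question addressed was whether the mRNA of these factors differed between KO and WT livers at each time and how it changed between the times.

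Pparg, the gene targeted for deletion, was higher and not lower in the libraries labelled KO. It stood at 38.8, 41.4 and 37.6 normalized CPM (counts scaled to the TMM-adjusted library total) in WT libraries 1, 2 and 3 at 2 months and at 50.4, 66.5 and 52.0 in the KO libraries. At 5 months the WT libraries had 36.9, 41.4 and 37.1 normalized CPM and the KO libraries 86.5, 92.9 and 75.0. The groups did not overlap at either time, with a log2 fold change of 0.52 (SE 0.107, adjusted p = 0.0309 by edgeR) at 2 months and 1.15 (SE 0.0847, adjusted p = 2.57e-06 by edgeR) at 5 months. Reads were counted per gene, so reads of the floxed exons are not seen apart, and the count is no measure of the deletion. Every direction below rests on the libraries labelled KO. Library totals ran from 16367775 to 27452284 counts. All 8 hepatocyte markers were present in every group. Their summed level was 9560 to 11500 normalized CPM in WT and 11900 to 13100 in KO at 2 months. At 5 months it was 19100 to 21000 in WT and 16400 to 17600 in KO. The sums thus lay higher in KO at 2 months and lower at 5 months, without overlap. Of the 8, 7 were higher in KO at 2 months (median log2 fold change 0.29) and 4 at 5 months (0.04). The part of hepatocyte content in the values of the factors was not tested. The 4 pancreatic acinar markers, which test for tissue of an organ that uses several of the same factors, summed to at most 0.259 normalized CPM.

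The promoters of the 3 factors that differed between KO and WT, and of Foxa1, which fell over time, are shown as the DNA these genes are read from. Onecut1 and Prox1 also fell in both genotypes, and their stretches are not printed here. Each is the stretch of 250 bases that ends just before a RefSeq start site (assembly GRCm38.p6, which shares its coordinates with mm10), written 5′ to 3′ on the strand of the gene. Capitals mark matches to short motifs of liver-enriched factors or to a CCAAT or TATA box, on either strand. Hnf4a has 2 promoters 40298 bases apart, P1 being the one known to be used in adult liver and P2 the one known from fetal liver and pancreas.

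Hnf4a P1, chr2:163546905-163547154, plus strand: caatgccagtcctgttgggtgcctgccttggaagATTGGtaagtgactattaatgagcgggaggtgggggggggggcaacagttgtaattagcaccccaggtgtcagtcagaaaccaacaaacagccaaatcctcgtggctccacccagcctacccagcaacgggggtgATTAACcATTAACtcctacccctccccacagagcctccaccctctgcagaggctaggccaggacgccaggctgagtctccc
Hnf4a P2, chr2:163506607-163506856, plus strand: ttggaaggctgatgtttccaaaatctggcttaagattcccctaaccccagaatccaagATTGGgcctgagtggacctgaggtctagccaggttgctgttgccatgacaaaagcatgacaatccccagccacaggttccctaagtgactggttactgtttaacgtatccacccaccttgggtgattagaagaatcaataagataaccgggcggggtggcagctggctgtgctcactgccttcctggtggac
Foxa3, chr7:19023540-19023789, minus strand: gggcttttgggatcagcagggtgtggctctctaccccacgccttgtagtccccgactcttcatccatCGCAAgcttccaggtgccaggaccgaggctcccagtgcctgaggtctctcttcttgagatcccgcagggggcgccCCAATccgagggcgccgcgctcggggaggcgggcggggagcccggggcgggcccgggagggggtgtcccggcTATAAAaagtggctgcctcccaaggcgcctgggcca
Cebpb, chr2:167688665-167688914, plus strand: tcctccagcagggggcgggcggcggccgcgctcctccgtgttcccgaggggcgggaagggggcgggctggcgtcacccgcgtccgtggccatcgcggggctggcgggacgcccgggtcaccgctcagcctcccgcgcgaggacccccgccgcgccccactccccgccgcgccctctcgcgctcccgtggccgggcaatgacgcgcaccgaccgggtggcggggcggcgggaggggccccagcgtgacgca
Foxa1, chr12:57546112-57546361, minus strand: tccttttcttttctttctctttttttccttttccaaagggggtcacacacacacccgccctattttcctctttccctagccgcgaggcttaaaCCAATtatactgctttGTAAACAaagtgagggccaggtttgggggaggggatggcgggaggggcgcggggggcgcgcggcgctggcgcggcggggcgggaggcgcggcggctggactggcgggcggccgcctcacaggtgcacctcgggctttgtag

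The P1 promoter of Hnf4a held ATTAAC, the reverse complement of the HNF1 core GTTAAT, at positions -81 to -76 and again at -74 to -69 from the start site, and 6.43% of the 32851 promoters searched held that core on either strand. That core was not found in the P2 stretch, and both stretches held ATTGG, the reverse complement of a CCAAT box. By the coordinates of the files the P1 and Foxa1 stretches lie inside the gene, and the P2 stretch crosses its given start. The Foxa1 promoter held GTAAACA, the reverse complement of the FOXA motif TGTTTAC, at -141 to -135, a motif found in 3.17% of promoters. The Foxa3 promoter held CGCAA, the reverse complement of the C/EBP core TTGCG (14.5% of promoters), at -183 to -179, a CCAAT box (33.8%) at -108 to -104 and a TATA box (TATAAA, 12.4%) at -36 to -31. The Cebpb stretch, at 81.6% G and C, matched none of the 10 motifs searched. The other motifs searched were the HNF4 site CAAAGTCCA (0.384% of promoters), the C/EBP palindrome TTGCGCAA (0.164%), the ONECUT site ATCGAT (0.728%), the NR5A2 site CAAGGTCA (1.33%) and the nuclear receptor core AGGTCA (14.0%), and none of these was in the 5 stretches above. The last 2 share letters, and the palindrome contains the C/EBP core. A match of letters is a description of the window and shows no binding. Counts are summed over a gene, so the use of P1 and P2 cannot be read from them.

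The levels of the 9 factors were set side by side per length, as normalized CPM per kilobase of the gene length given in the files. Cebpa was the most abundant in all 4 groups, at 224 ± 27.3 CPM per kb in WT and 217 ± 26.9 in KO at 2 months, and at 184 ± 15.1 in WT and 211 ± 4.53 in KO at 5 months (SD, n = 3 each). Among the 1469 genes to which the files give a transcription factor family, this placed Cebpa at rank 1 in 3 groups and at rank 2, after Atf5, in WT livers at 5 months. Hnf4a and Cebpb came next. Hnf4a had 94.99 ± 10.4 CPM per kb and Cebpb 78.6 ± 15.96 in WT at 2 months, and the libraries of the pair overlapped. Their order turned by 5 months, when Cebpb stood above Hnf4a in both groups, without overlap in KO livers (151 ± 6.62 against 128 ± 5.00 CPM per kb) and with overlap in WT livers (120 ± 13.8 against 106 ± 6.19). The remaining factors formed a lower tier. Prox1, Foxa2, Nr5a2 and Foxa3 ranged in their group means from 9.64 to 19.8 CPM per kb, and Foxa2 and Nr5a2 overlapped in every group but KO at 2 months. Prox1 led this tier at 2 months, and Foxa3 led it at 5 months. Foxa1 lay at 4.86 to 8.18 CPM per kb, and Onecut1 was lowest in every group, at 3.23 ± 1.5 in WT and 3.03 ± 1.49 in KO at 2 months and at 0.939 ± 0.228 and 0.541 ± 0.203 at 5 months.

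**Figure D1:**
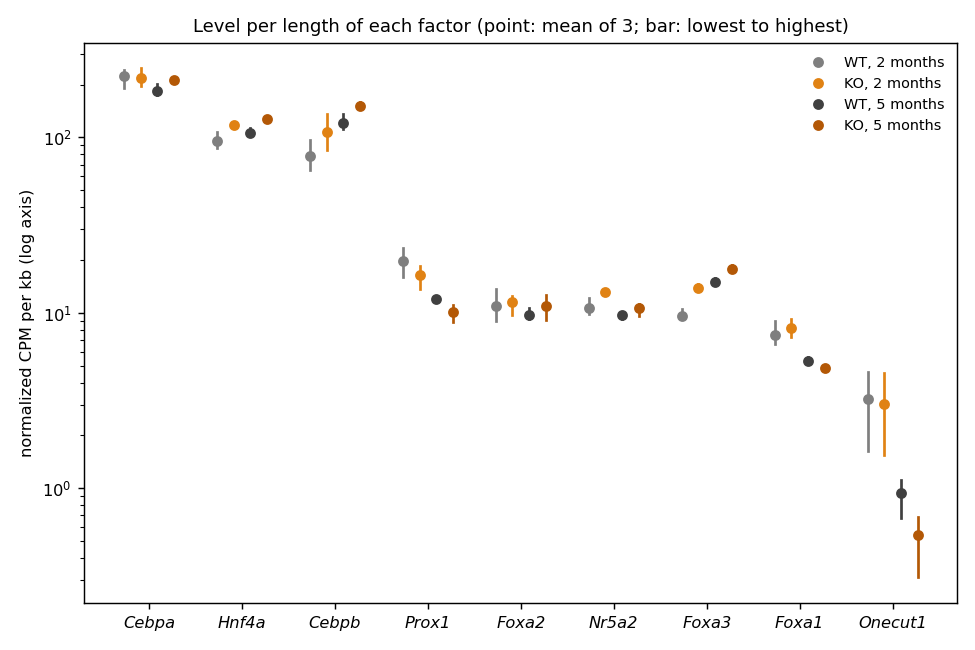
Level of each factor in normalized CPM per kilobase (vertical log axis) in the 4 groups, with the point at the mean of 3 libraries and the bar from the lowest to the highest library. The group means of Cebpa, Hnf4a and Cebpb lie at 78.6 and above, those of the other 6 factors at 19.8 and below, and those of Onecut1 at 0.939 and 0.541 at 5 months.

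Between KO and WT livers, the factors that differed were higher in KO. At 2 months, in the main fit without the replicate number, Foxa3 was the only one of the 9 that passed the threshold. With the number as a block, a pairing read from these same libraries, Cebpb passed as well. The threshold was an adjusted p below 0.05 in edgeR's quasi-likelihood test, and the background in the main fit was 3.56% of the 14573 genes tested. That background held 1.78% of genes called higher and 1.78% called lower. At 5 months Hnf4a, Foxa3 and Cebpb passed, all higher in KO, against 18.4% of 14138 genes, with 8.9% called higher and 9.51% called lower. Below the unadjusted p of 0.05 that the study used, 3 factors lay at 2 months (18.9% of all genes) and 6 at 5 months (30.7%). The KO and WT libraries did not overlap in 3 factors at 2 months (24.1% of all genes) and in 6 at 5 months (34.8%). The median log2 fold change of the 9 was 0.13 at 2 months and 0.18 at 5 months, beside -0.005 and -0.006 over all genes tested. Of the genes with a transcription factor family, 2.87% were called at 2 months and 13.7% at 5 months.

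**Figure D2:**
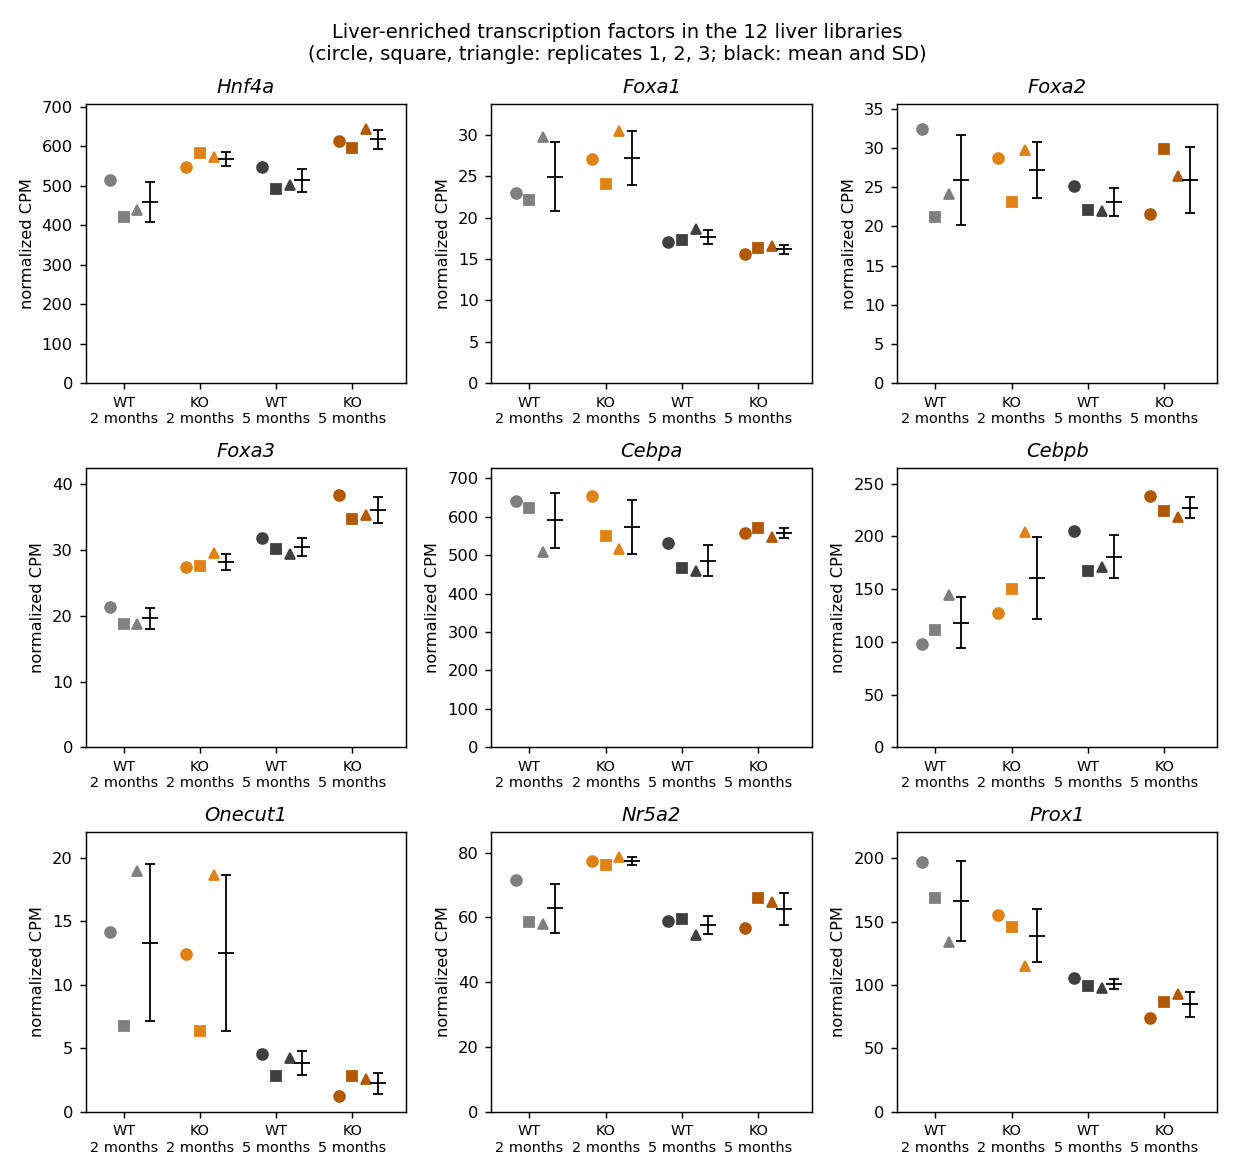
Normalized CPM (vertical axes, each starting at 0) of the 9 factors in the 12 libraries, with circle, square and triangle for replicates 1, 2 and 3 and the mean and SD in black. Hnf4a and Foxa3 lie higher in every KO library than in every WT library of the same time, and Foxa1, Onecut1 and Prox1 lie lower at 5 than at 2 months in both genotypes.

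Hnf4a (ENSMUSG00000017950, mm10 chromosome 2 from 163506808 to 163572910, plus strand) was higher in KO livers at both times. The WT libraries 1, 2 and 3 had 515, 421 and 439.8 normalized CPM at 2 months, and the KO libraries had 549, 584 and 572. At 5 months the WT libraries had 548, 491 and 503 and the KO libraries 615, 596 and 644. No WT library reached the lowest KO library of its time, and WT replicate 1 was the highest of its group at both times. In the fit this was a log2 fold change of 0.31 at 2 months (SE 0.0935, adjusted p = 0.105 by edgeR), which did not pass, and 0.28 at 5 months (SE 0.0705, 95% interval 0.13 to 0.43, adjusted p = 0.0151 by edgeR), a 1.21-fold higher level. Without WT replicate 1, which lay farthest from its group over all genes, the 2-month value was 0.40 (adjusted p = 0.00344 by edgeR). This was the highest value of 13 alternative fits, which ran from 0.24 to 0.40 (adjusted p 0.00344 to 0.342 by edgeR or DESeq2). Of these, 4 passed and 9 did not. At 5 months the call was lost without WT replicate 2 (0.25, adjusted p = 0.093 by edgeR), WT replicate 3 (0.26, adjusted p = 0.0748 by edgeR) or KO replicate 3 (0.25, adjusted p = 0.0708 by edgeR).

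The antisense gene Hnf4aos shares 34913 bases with Hnf4a on the other strand, and whether the counting used strand is not given in the sources used here, so reads of the 2 genes cannot be told apart with certainty. Hnf4aos had 22 to 134 counts per library, against 8175 to 15382 for Hnf4a. Its log2 fold change between KO and WT was 0.79 (SE 0.246, adjusted p = 0.117 by edgeR) at 2 months and 0.81 (SE 0.295, adjusted p = 0.0758 by edgeR) at 5 months. Over time it fell in both genotypes, by 0.87 on the log2 scale in WT and by 0.86 in KO, where Hnf4a did not pass.

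Among the FOXA factors, Foxa3 differed between the groups and Foxa1 and Foxa2 did not pass. Foxa3 (ENSMUSG00000040891, chromosome 7 from 19013284 to 19023538, minus strand), the FOXA member known for glucose and lipid genes of the adult liver, had 21.4, 18.7 and 18.8 normalized CPM in the WT libraries and 27.4, 27.6 and 29.6 in the KO libraries at 2 months. At 5 months it had 31.9, 30.2 and 29.4 in WT and 38.4, 34.7 and 35.3 in KO. The KO libraries lay above all WT libraries at both times, and the spread within groups was small, with coefficients of variation of 4.27% to 7.9%. Fitted log2 fold changes were 0.52 at 2 months (SE 0.0916, 95% interval 0.32 to 0.73, adjusted p = 0.018 by edgeR) and 0.26 at 5 months (SE 0.0701, 95% interval 0.10 to 0.41, adjusted p = 0.0225 by edgeR). The call at 2 months was lost without WT replicate 2 (0.49, adjusted p = 0.0777 by edgeR), WT replicate 3 (0.49, adjusted p = 0.072 by edgeR), KO replicate 1 (0.54, adjusted p = 0.0625 by edgeR) or KO replicate 3 (0.49, adjusted p = 0.0653 by edgeR). At 5 months it was lost without WT replicate 2 (0.25, adjusted p = 0.0866 by edgeR), WT replicate 3 (0.23, adjusted p = 0.11 by edgeR), KO replicate 1 (0.21, adjusted p = 0.0952 by edgeR) or KO replicate 3 (0.27, adjusted p = 0.0538 by edgeR), and also under DESeq2 (0.26, adjusted p = 0.0699) and with library size alone (0.19, adjusted p = 0.07 by edgeR).

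Foxa1 (ENSMUSG00000035451, chromosome 12 from 57540628 to 57546916, minus strand) had 23.0, 22.1 and 29.7 normalized CPM in WT and 27.1, 24.1 and 30.5 in KO at 2 months. At 5 months it had 17.0, 17.2 and 18.6 in WT and 15.6, 16.3 and 16.6 in KO. The groups overlapped at 2 months and did not at 5 months, where KO was the lower. Its log2 fold change was 0.13 (95% interval -0.17 to 0.42) at 2 months and -0.12 (95% interval -0.31 to 0.08) at 5 months.

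Foxa2 (ENSMUSG00000037025, chromosome 2 from 148042877 to 148046969, minus strand), the FOXA member tied to fasting and bile acid genes, had 32.4, 21.3 and 24.1 normalized CPM in WT and 28.7, 23.1 and 29.7 in KO at 2 months. By 5 months the values were 25.2, 22.1 and 22.0 in WT and 21.6, 29.8 and 26.4 in KO. The groups overlapped at both times. Its log2 fold change was 0.07 (95% interval -0.30 to 0.44) at 2 months and 0.18 (95% interval -0.07 to 0.42) at 5 months. With 3 libraries a group, differences of the sizes within these intervals remain possible.

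Of the C/EBP factors, Cebpb was higher in KO livers and passed at 5 months, and Cebpa passed at neither time. Cebpb (ENSMUSG00000056501, chromosome 2 from 167688915 to 167690418, plus strand) had 98.5, 111 and 145 normalized CPM in WT libraries 1, 2 and 3 at 2 months and 128, 151 and 204 in the KO libraries with the same numbers. The groups overlapped, yet each KO library was above the WT library of its number, by 0.38, 0.44 and 0.49 on the log2 scale. The log2 fold change was 0.44 in both fits: the SE was 0.215 (adjusted p = 0.344 by edgeR) without the replicate number and 0.0761 (95% interval 0.27 to 0.60, adjusted p = 0.0112 by edgeR) with the number as a block. After 5 months the WT libraries had 205, 167 and 171 normalized CPM and the KO libraries 238, 224 and 219, and no WT library reached the lowest KO library. The log2 fold change was 0.34 there (SE 0.0791, 95% interval 0.17 to 0.51, adjusted p = 0.0097 by edgeR). The call was lost without WT replicate 2 (0.29, adjusted p = 0.0628 by edgeR) or WT replicate 3 (0.30, adjusted p = 0.059 by edgeR), so that leaving out either of these WT libraries left 0 of the 9 factors called at 5 months. With all 12 libraries in one fit the value was 0.33 (adjusted p = 0.281 by edgeR).

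Cebpa (ENSMUSG00000034957, chromosome 7 from 35119293 to 35121928, plus strand) had 640.3, 622 and 507 normalized CPM in WT and 653, 550.2 and 516 in KO at 2 months, with overlap and a log2 fold change of -0.04 (95% interval -0.30 to 0.22). At 5 months it had 531, 468 and 458 in WT and 557, 569.6 and 546 in KO. The KO libraries lay above all WT libraries there, and the log2 fold change was 0.21 (SE 0.0729, adjusted p = 0.0633 by edgeR), short of the threshold. DESeq2 gave 0.21 with an adjusted p of 0.0342.

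Cebpa and Cebpb are also transcribed in myeloid cells. All 6 macrophage markers were called lower in KO at 5 months, and their summed level was 796 to 958 normalized CPM in the WT libraries and 388 to 541 in the KO libraries, opposite in direction to Cebpb. At 2 months 0 of the 6 were called, and the sums were 340 to 406 in WT and 356 to 425 in KO. The neutrophil markers summed to at most 6.52 normalized CPM in any library. In whole liver, fewer cells of a type and less RNA per cell cannot be told apart, and the part of these cells in the C/EBP values was not tested. Cebpb also shares 908 bases with Tmem189 on the other strand, a gene with 356 to 545 counts per library against 1806 to 5480 for Cebpb. The log2 fold change of Tmem189 was -0.37 at 2 months (SE 0.129, adjusted p = 0.159 by edgeR) and 0.05 at 5 months (SE 0.094, adjusted p = 0.782 by edgeR).

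Onecut1 (ENSMUSG00000043013, chromosome 9 from 74861921 to 74891781, plus strand) spread most within groups. At 2 months the WT libraries 1, 2 and 3 had 14.2, 6.74 and 19.0 normalized CPM and the KO libraries of the same numbers had 12.4, 6.38 and 18.6. Libraries of one number thus lay close together while the lowest and highest of a group stood far apart, with coefficients of variation of 46.3% in WT and 49.1% in KO. The log2 ratio of KO to WT was -0.19, -0.08 and -0.03 for numbers 1, 2 and 3. The fold change was -0.08 with a 95% interval of -1.48 to 1.33 without the replicate number, and -0.10 with an interval of -0.36 to 0.17 with the number as a block. At 5 months Onecut1 had 4.56, 2.80 and 4.23 normalized CPM in WT and 1.27, 2.82 and 2.59 in KO, from 27 to 81 counts per library. The groups overlapped, and the log2 fold change was -0.80 (SE 0.295, adjusted p = 0.0813 by edgeR). HNF6 is also made in bile duct cells. The 7 cholangiocyte markers summed to 100 to 182 normalized CPM in WT and 68.3 to 88.5 in KO at 2 months, and to 137 to 280 in WT and 209 to 251 in KO at 5 months. These sums were carried by Spp1, which is also made in macrophages, with 128 ± 40.6 normalized CPM in WT and 67.7 ± 9.66 in KO at 2 months and 222 ± 80.4 and 208 ± 22.3 at 5 months (SD, n = 3 each), while the other 6 markers had group means of 0.122 to 7.62. Between KO and WT 0 of 6 markers tested were called at 2 months by edgeR, with 1 below an unadjusted p of 0.05, and 1 of 5 at 5 months, Sox9, which was higher in KO (0.63, SE 0.15, adjusted p = 0.0102 by edgeR). Over time 0 of 5 were called in WT, with 1 below an unadjusted p of 0.05, and 1 of 6 in KO, Spp1, which rose. Their part in the Onecut1 values was not tested.

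**Figure D3:**
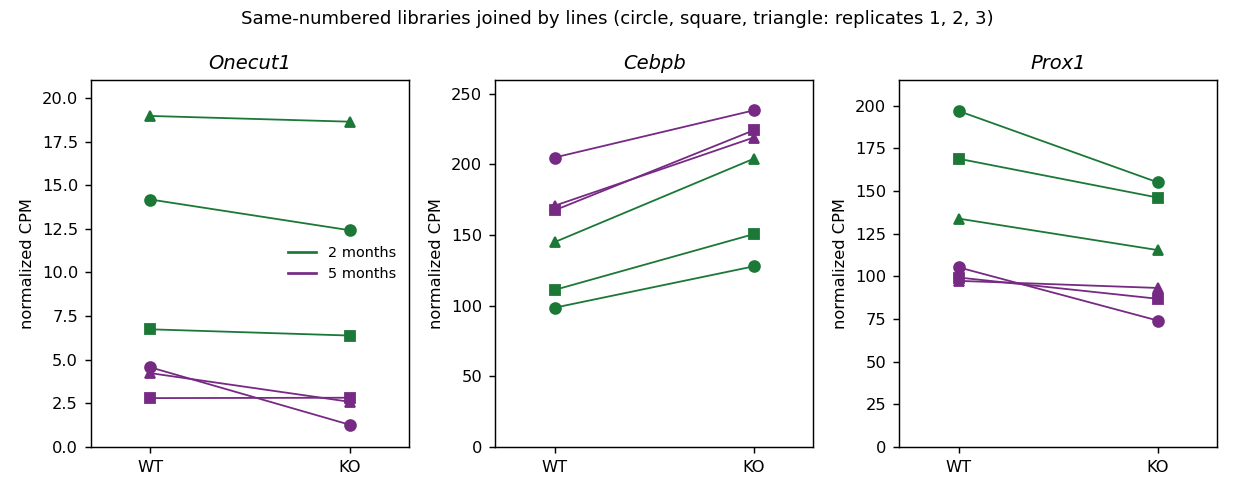
Normalized CPM (vertical axes from 0) of Onecut1, Cebpb and Prox1 in WT and KO libraries, with lines between libraries of the same replicate number (green, 2 months, and purple, 5 months). At 2 months the 3 green lines do not cross in any panel, and the order of the numbers is the same in WT and KO. The factors shown are among the 5 of 9 with the same order at 2 months. Hnf4a, Foxa2, Foxa3 and Nr5a2, whose orders differed, are not drawn.

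Nr5a2 (ENSMUSG00000026398, chromosome 1 from 136842571 to 136960448, minus strand) had 71.7, 58.7 and 58.0 normalized CPM in WT and 77.4, 76.1 and 78.7 in KO at 2 months, without overlap. Here the log2 fold change was 0.30 (SE 0.0886, adjusted p = 0.0966 by edgeR), and without WT replicate 1 it was 0.41 (adjusted p = 0.00378 by edgeR). The 13 alternative fits ran from 0.23 to 0.41 (adjusted p 0.00378 to 0.325 by edgeR or DESeq2), and 10 of them did not pass. After 5 months the WT libraries had 58.8, 59.6 and 54.5 and the KO libraries 56.8, 66.1 and 64.8, with overlap and a log2 fold change of 0.13 (95% interval -0.03 to 0.29).

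Prox1 (ENSMUSG00000010175, chromosome 1 from 190118035 to 190170714, minus strand) was the member with lower means in KO at both times, together with Onecut1. It had 197, 169 and 134 normalized CPM in WT and 155, 146 and 115 in KO at 2 months. At 5 months it had 105, 99.2 and 97.3 in WT and 74.0, 86.8 and 93.1 in KO. The groups overlapped at 2 months and did not at 5 months. Prox1 had a log2 fold change of -0.26 (SE 0.162, adjusted p = 0.443 by edgeR) at 2 months, with each KO library below the WT library of its number, and -0.24 (SE 0.0813, adjusted p = 0.0588 by edgeR) at 5 months. With library size alone the 5-month value was -0.31 (adjusted p = 0.0188 by edgeR). PROX1 also marks lymphatic endothelium. Of the 6 endothelial markers, 3 were called at 5 months, 1 higher and 2 lower in KO. Flt4 was the higher one (0.90, SE 0.166, adjusted p = 0.0106 by edgeR), and Pecam1 (-0.24) and Cdh5 (-0.36) were lower. The summed level of the 6 was 164 to 190 normalized CPM in WT and 183 to 214 in KO. The antisense genes Prox1os and Gm28172, which share 419 and 964 bases with Prox1, had 54 to 155 and 1 to 18 counts per library.

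**Figure D4:**
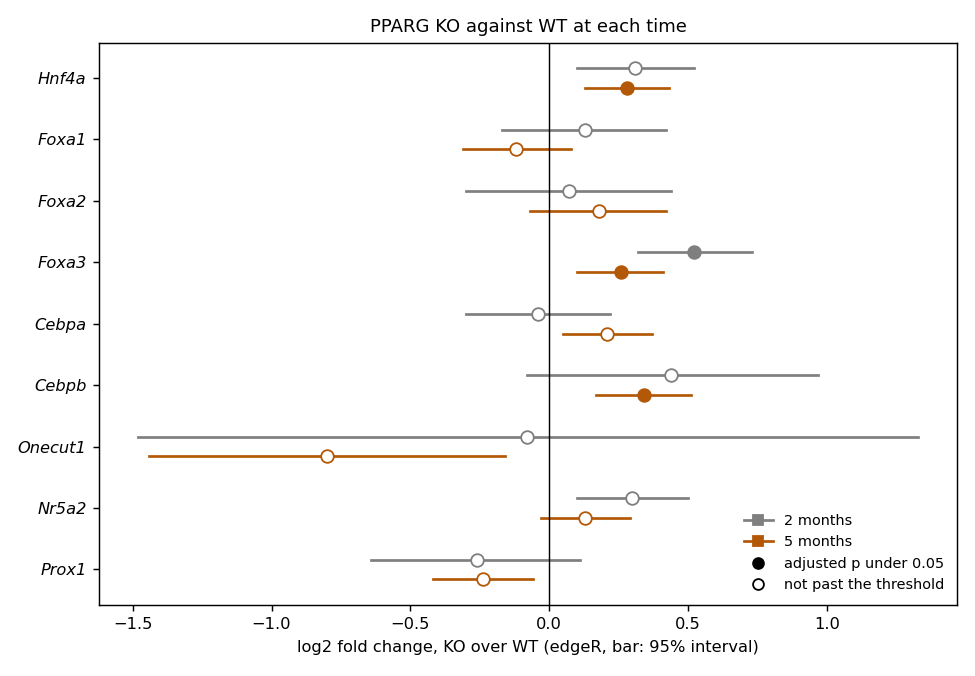
Log2 fold change of KO over WT (horizontal axis) for the 9 factors at 2 months (grey) and 5 months (brown), with 95% intervals from edgeR and filled points past an adjusted p of 0.05. The fits shown do not use the replicate number. Foxa3 is filled at both times, Hnf4a and Cebpb at 5 months, and the interval of Onecut1 at 2 months runs from -1.48 to 1.33.

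The order of the replicate numbers was the same in WT and KO for 5 of the 9 factors at 2 months (Foxa1, Cebpa, Cebpb, Onecut1 and Prox1) and for 1 of 9 at 5 months (Foxa1). The labels do not say what the number stands for. With the number as a block, 2 of the 9 factors passed at 2 months in place of 1, Cebpb being added to Foxa3 (0.52, SE 0.101, adjusted p = 0.0168 by edgeR).

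The effect of the genotype was then compared between the times in 1 model of all 12 libraries. None of the 9 factors passed (edgeR, 0 of 9 against 1.57% of 15127 genes), DESeq2 also called 0, and 1 lay below an unadjusted p of 0.05 (14.9% of all genes). That factor was Foxa3, whose difference was smaller at 5 than at 2 months by a log2 value of -0.28 (SE 0.111, 95% interval -0.51 to -0.04, adjusted p = 0.243 by edgeR). For Hnf4a the change in the effect was -0.04 (95% interval -0.29 to 0.20), and for Cebpb it was -0.12 (95% interval -0.68 to 0.44). The widest interval was that of Onecut1, at -0.74 (-2.39 to 0.92).

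Between 2 and 5 months of diet more of the set was called than between the genotypes, in both directions. In WT livers Foxa3 and Cebpb rose and Foxa1, Onecut1 and Prox1 fell, 5 of 9 against 46.4% of 14491 genes (23.8% higher and 22.7% lower). In KO livers Foxa3 rose and Foxa1, Onecut1, Nr5a2 and Prox1 fell, again 5 of 9, against 44.9% of 14478 genes (22.7% higher and 22.2% lower). These shares lie near the background. An unadjusted p below 0.05 was found for 6 of 9 in each genotype, against 53.7% of genes in WT and 52.5% in KO. Among genes with a transcription factor family, 39.4% were called in WT, 82 higher and 275 lower, and 39.9% in KO, 68 higher and 290 lower. The mice of the later time were also older, and the sources used here do not say whether the company handled both times in a single run, so duration of diet, age and any batch of that kind cannot be told apart.

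Onecut1 fell the most of the 9, by 1.78 on the log2 scale in WT (SE 0.403, adjusted p = 0.0113 by edgeR) and by 2.52 in KO (SE 0.518, adjusted p = 0.0128 by edgeR). Its lowest library at 2 months, at 6.38 normalized CPM, lay above its highest library at 5 months, at 4.56. The call was lost in WT without WT replicate 1 of 2 months (-1.73, adjusted p = 0.0533 by edgeR) and in KO without KO replicate 3 of 5 months (-2.63, adjusted p = 0.0513 by edgeR). Prox1 fell by 0.73 in WT (SE 0.126, adjusted p = 0.00127 by edgeR) and by 0.72 in KO (SE 0.129, adjusted p = 0.00352 by edgeR). The summed level of the 6 endothelial markers was also lower at the later time without overlap, at 223 to 283 normalized CPM at 2 months and 164 to 190 at 5 months in WT and at 239 to 256 and 183 to 214 in KO. Of the 5 tested, 3 were called lower in WT, and in KO 3 were called lower and 1 higher. Over all genes 46.4% were called in WT and 44.9% in KO. Pdpn, with 2 to 19 counts per library, was not tested. Its means were higher at 5 months, at 0.191 and 0.659 normalized CPM in WT and 0.235 and 0.344 in KO. Stab2 was the largest part of the sum, with means of 93.4 normalized CPM at 2 months and 58.4 at 5 months in WT and of 98.7 and 61.7 in KO. In KO the means of Lyve1 (18.8 and 25.2) and Flt4 (50.6 and 53.5) were not lower at 5 months. The part of endothelial cells in the fall of Prox1 was not tested. Foxa1 fell by 0.50 in WT (SE 0.121, adjusted p = 0.00603 by edgeR) and by 0.76 in KO (SE 0.0975, adjusted p = 0.000105 by edgeR). For all 3 genes every library at 5 months was below every library at 2 months of the same genotype. The share of all genes that separated in this way over time was not counted.

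Foxa3 was the one factor of the set that passed in both genotype comparisons and in both time comparisons. It rose by a log2 fold change of 0.63 in WT (SE 0.0922, adjusted p = 0.000292 by edgeR) and 0.35 in KO (SE 0.0737, adjusted p = 0.00251 by edgeR). The KO livers at 2 months (27.4 to 29.6 normalized CPM) had thus come near the WT livers at 5 months (29.4 to 31.9). Cebpb rose by 0.61 in WT (SE 0.141, adjusted p = 0.00682 by edgeR), where all 6 macrophage markers rose as well and their sum went from 340 to 406 normalized CPM to 796 to 958. In KO the Cebpb value was 0.49 (SE 0.174, adjusted p = 0.066 by edgeR), with no overlap between the times, and macrophage sums were 356 to 425 at 2 months and 388 to 541 at 5 months. Without KO replicate 3 of 2 months, the highest Cebpb library at that time, the value was 0.70 (adjusted p = 0.000103 by edgeR).

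Nr5a2 fell in KO by 0.31 on the log2 scale (SE 0.0705, adjusted p = 0.00418 by edgeR), and in WT its value was -0.13 (SE 0.0927, adjusted p = 0.293 by edgeR). Hnf4a did not pass in either genotype, at 0.16 (95% interval -0.06 to 0.38) in WT and 0.12 (-0.01 to 0.25) in KO. Foxa2 was at -0.17 (-0.50 to 0.16) and -0.08 (-0.38 to 0.23). Cebpa was at -0.28 in WT (SE 0.109, adjusted p = 0.0526 by edgeR), a value that passed in 8 of its 13 alternative fits, and at -0.04 (SE 0.0819) in KO.

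**Figure D5:**
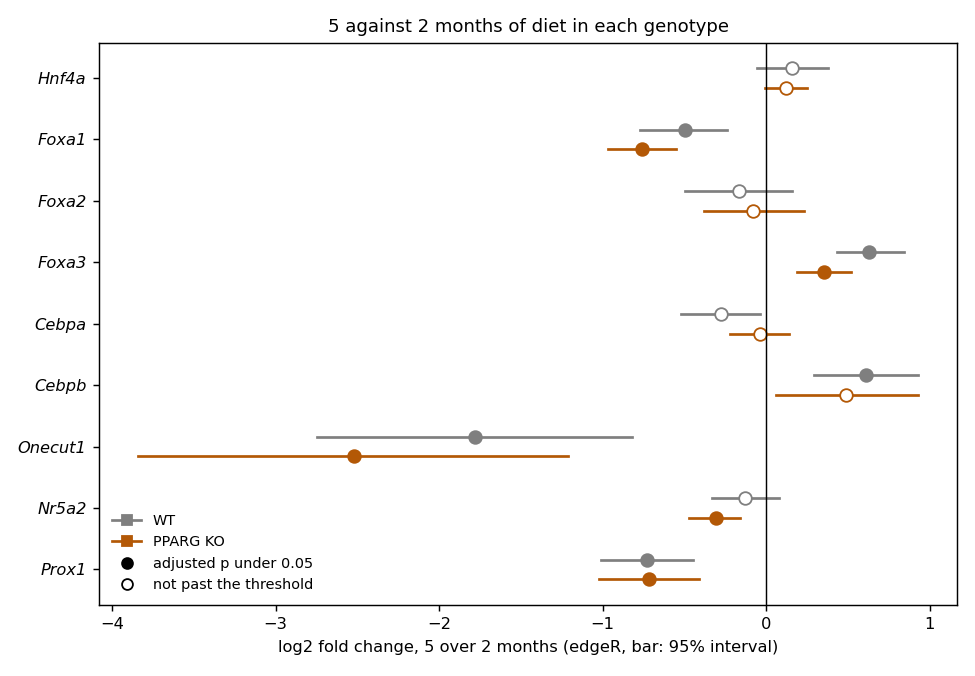
Log2 fold change of 5 over 2 months of diet (horizontal axis) for the 9 factors in WT (grey) and KO (brown), with 95% intervals from edgeR and filled points past an adjusted p of 0.05. Foxa1, Onecut1 and Prox1 lie below 0 and Foxa3 above 0 with filled points in both genotypes, and Onecut1 is farthest from 0, at -1.78 and -2.52.

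Other genes of the same network were counted in 3 lists beside the 9. The first list held 9 close relatives, of which Onecut3 was at 0 in all libraries, Nr5a1 had 0 to 2 counts and Hnf4g 0 to 8, and these 3 were not tested. Of the 6 tested, 0 were called between KO and WT at 2 months (edgeR, with 0 below an unadjusted p of 0.05 and 0 by DESeq2). At 5 months 1 was called: Cebpd, an acute phase relative of Cebpb, fell by 0.33 in KO (SE 0.0941, adjusted p = 0.0288 by edgeR), from 21.1 ± 1.74 normalized CPM in WT to 16.7 ± 1.01 (SD, n = 3 each). That call was absent under DESeq2. The median log2 fold change of the relatives was 0.11 at 2 months and -0.12 at 5 months. Over time all 6 were called in WT, 4 higher and 2 lower, and 4 in KO, 2 in each direction, where 46.4% and 44.9% of all genes were called. Between KO and WT the shares of all genes were 3.56% at 2 months and 18.4% at 5 months.

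The second list held 20 partner factors, such as HNF1, RXR and other nuclear receptors. At 2 months 1 was called: Klf15, a factor of amino acid and glucose metabolism, rose in KO from 145 ± 19.6 to 226 ± 38.3 normalized CPM (log2 0.64, SE 0.14, adjusted p = 0.0482 by edgeR), and the call was lost with the replicate block (0.63, adjusted p = 0.0635 by edgeR). At 5 months 7 were called, 5 higher and 2 lower in KO. Nr0b2, which encodes the small heterodimer partner SHP, a repressor of HNF4α and LRH-1, rose from 38.1 ± 3.77 to 81.9 ± 6.35 normalized CPM (log2 1.12, SE 0.0823, adjusted p = 2.57e-06 by edgeR). The nuclear receptor genes Nr1i3 (CAR) and Ppara rose by 0.62 and 0.45 on the log2 scale. Hhex, a homeobox factor of liver development that is also present in endothelium, fell from 73.9 ± 3.02 to 37.0 ± 10.8 normalized CPM (log2 -1.0, SE 0.211, adjusted p = 0.0281 by edgeR). Nr2f2 (COUP-TFII), a factor also of endothelial and stromal cells, fell by 0.49 (SE 0.0771, adjusted p = 0.00072 by edgeR). The median of the 20 was 0.07 at 2 months and 0.15 at 5 months. Over time 10 of 20 were called in each genotype, 3 higher and 7 lower in WT and 2 higher and 8 lower in KO, a share of 50% that lies near the 46.4% and 44.9% of all genes. Between KO and WT, the 1 and 7 calls are 5% and 35% of the list, beside 3.56% and 18.4% of all genes.

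The third list held 20 hepatocyte genes known as targets of these factors. At 2 months 2 were called: Apoc3, an apolipoprotein of triglyceride-rich particles, rose from 964 ± 59.3 to 1262 ± 76.0 normalized CPM in KO (log2 0.39, SE 0.0902, adjusted p = 0.0469 by edgeR), and Hp, the acute phase protein haptoglobin, fell from 2555 ± 119 to 1928 ± 147 (log2 -0.41, SE 0.0946, adjusted p = 0.0469 by edgeR). With the replicate block both calls were lost (adjusted p = 0.0772 by edgeR and 0.0688), and Tat, the tyrosine aminotransferase gene, was the 1 that passed (1.05, SE 0.132, adjusted p = 0.00243 by edgeR). At 5 months 7 were called, 5 higher and 2 lower in KO. Cyp8b1, the sterol 12α-hydroxylase of bile acid synthesis, rose from 139 ± 14.8 to 338 ± 61.6 normalized CPM (log2 1.29, SE 0.131, adjusted p = 0.000303 by edgeR). Alb, which encodes albumin, rose by 0.64 (SE 0.108, adjusted p = 0.00121 by edgeR) and Tat by 0.43 (SE 0.098, adjusted p = 0.00872 by edgeR). G6pc, the glucose-6-phosphatase catalytic subunit, fell by 0.66 (SE 0.073, adjusted p = 6.06e-05 by edgeR), and Hp fell by 0.63 (SE 0.0898, adjusted p = 0.000388 by edgeR). The median of the 20 was 0.19 at 2 months and 0.07 at 5 months. Over time 11 were called in WT, 8 of them higher, and 8 in KO, 6 of them higher, shares of 55% and 40% that lie near the 46.4% and 44.9% of all genes. The 2 and 7 calls between KO and WT are 10% and 35% of the list, beside 3.56% and 18.4%. The 8 hepatocyte markers, counted separately, had 1 call at 2 months, higher in KO, and 4 calls at 5 months, 2 in each direction.

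For the 3 factors that differed between KO and WT, the genes with the most similar pattern were sought among 9717 protein-coding genes with a mean of at least 5 normalized CPM. Likeness was the root mean square difference of log2 CPM over the 12 libraries after each gene's mean was removed. Hnf4a was nearest to Nqo2 (0.0433), Lgals9 (0.0528) and Cyp2j5 (0.0633), where the pattern of Hnf4a itself had a root mean square of 0.18. Nqo2, a quinone reductase gene, had mean levels of 97.6 and 124 normalized CPM in WT and KO at 2 months and of 110 and 135 at 5 months. Foxa3 was nearest to Msrb1 (0.0622), Mocs2 (0.0633) and Nit2 (0.0687), against 0.322 for its own pattern. Cebpb was nearest to Stip1 (0.137), Dnajb9 (0.142) and Hspa4l (0.153), against 0.397. The mean levels of Stip1, a co-chaperone gene, were 56.4 and 75.2 normalized CPM in WT and KO at 2 months and 89.6 and 94.9 at 5 months. These are descriptions over 12 libraries that share library and time, with no test.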

How the data were processed

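RNA from whole liver had been sequenced by a company on an Illumina NovaSeq, and the authors deposited for each of the 12 libraries the counts of reads per gene, not normalized, with gene coordinates, length and family. The paper names STAR as the aligner and the submitters' processing notes name HISAT2, both with mm10. The counting program, annotation version and strand setting are not given in the sources used here. Dates replace 27 gene names in the deposited tables, none of them a member.

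Genes with too few counts were removed by edgeR's filterByExpr, libraries were scaled by TMM, and each comparison was fitted on its own 6 libraries with edgeR's robust quasi-likelihood method (edgeR 4.0.16 with limma 3.58.1 in R 4.3.3). F-tests were two-sided. The Benjamini-Hochberg method adjusted p-values across every gene in the fit, and 0.05 was the threshold. The change of the genotype effect between times was fitted on all 12 libraries with 4 group means. Scripts were tested on simulated data. Normalized CPM used TMM factors over the 12 libraries, and likeness added 0.5 CPM before the logarithm. Library totals were 17869685 to 18584189 counts in WT and 17384716 to 27452284 in KO at 2 months, and 16969546 to 18925781 and 16367775 to 22249141 at 5 months. Within groups no library duplicated another. The chi-square per gene between replicates was 2.44 for WT replicates 2 and 3 at 5 months and 9.4 to 31.7 for every other pair. These WT libraries were thus much the closest pair, and the labels do not say whether they came from separate mice. The WT spread at 5 months, and the SEs there, rest in part on this pair. Removal of either library lost the Hnf4a, Foxa3 and Cebpb calls at 5 months, which were all the calls among the factors there. Libraries of different groups were not compared in this way.

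The labels give groups the same replicate numbers. In 5000 abundant genes at 2 months, same-numbered WT and KO libraries deviated together (correlations 0.22, 0.324 and 0.14). Pairs of unlike number had -0.274 to 0.114, the highest being WT 1 with KO 3, so the pairing was least clear for number 3. The numbers were taken to pair libraries there, from the data and not from the labels. Blocked values at 2 months thus rest on a pairing read from these same libraries and give no independent support for a call. The main fits carried no replicate block. Their calls, SEs and intervals at 2 months thus leave this pairing out, and the blocked fit was an alternative. At 5 months the correlations were -0.078, -0.06 and -0.179, and over time not all were above 0.1.

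The genes named are the 9 members, Pparg, up to 5 called genes per list and comparison by size, genes overlapping a member, and the 3 most alike genes. Overlapping genes not named above had few or no counts. Gm45091, on the other strand of Cebpa, had 9 to 30 per library. Gm25881, on the strand of Hnf4a, had 0 to 4, and Gm20649, which shares 29556 bases with Onecut1 on the same strand, had 0. The members and lists were chosen with earlier results of these data known. Alternatives were library size alone, DESeq2 size factors, DESeq2 1.42.0, every gene kept, a minimum of 10 counts per library, the study's unadjusted threshold, the replicate block, all 12 libraries in one fit, and each library left out. The block for the 3 lists at 2 months was added after the data were seen.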

Additional observations from a re-analysis of the deposited data

Results flagged for a closer look

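The effect of the genotype differed between 5 and 2 months, by the test of the difference itself, for 3 of the genes reported. For Pparg the difference was 0.62 on the log2 scale (SE 0.145, adjusted p = 0.0432 by edgeR), higher in 3 of 3 KO libraries than in all WT libraries at both times. For Hhex it was -1.34 (SE 0.231, adjusted p = 0.019 by edgeR), with 77.1 ± 3.59 normalized CPM in KO and 61.2 ± 7.02 in WT at 2 months and 37.0 ± 10.8 and 73.9 ± 3.02 at 5 months. For Cyp8b1 it was 1.3 (SE 0.212, adjusted p = 0.0125 by edgeR), with 322 ± 21.6 normalized CPM in KO and 326 ± 62.3 in WT at 2 months and 338 ± 61.6 and 139 ± 14.8 at 5 months (SD, n = 3 each). None of the 9 factors was among them.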

How the results depend on the processing

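Of 630 alternative values of single factors, 563 kept their direction and their side of the threshold, 18 lost a call, 28 gained one and 21 changed sign, none of the last at a called value. The cause of these changes was not tested. The number of the 9 factors called between KO and WT at 2 months went from 1 to 3 with the unadjusted threshold, without the filter or with all 12 libraries in one fit, and to 2 with DESeq2 or with the replicate block. At 5 months it went from 3 to 6 with the unadjusted threshold or without the filter, and for the difference between times from 0 to 1 with the unadjusted threshold. With a library left out, 0 to 3 were called at 2 months, 0 to 4 at 5 months, 5 to 6 over time in WT, 4 to 6 over time in KO and 0 in the difference. The relatives called at 5 months were 2 with library size alone, 0 with DESeq2 and 0 to 1 with a library left out. The partners called at 2 months were 0 with the replicate block and 0 to 4 with a library left out, and at 5 months 5 to 8. The targets called at 2 months were 1 with library size alone, 6 with DESeq2, 1 with the replicate block and 0 to 6 with a library left out, and at 5 months 5 to 9.

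The sign changes were at small values. Foxa2 went to -0.00058 at 2 months with library size alone. The others came with a library left out, and the range of each value was as follows. Foxa2 ran down to -0.05 at 2 months, from -0.29 to 0.03 over time in WT, from -0.19 to 0.05 over time in KO and from -0.09 to 0.22 in the difference, with -0.0033 and -0.02 between. Cebpa ran from -0.14 to 0.03 at 2 months, with 0.02 between, and up to 0.06 over time in KO. Onecut1 ran from -0.49 to 0.27 at 2 months, with 0.23 between. In the difference Hnf4a ran from -0.13 to 0.02, with 0.0074 between, Cebpb from -0.29 to 0.09, with 0.0018 between, and Prox1 from -0.12 to 0.15, with -0.11, -0.0071, -0.0074 and -0.06 between. Library size alone moved the median of all genes by less than 0.1 on the log2 scale. With 27 to 501 counts of Onecut1 per library and 3 libraries a group, small differences were not detectable. The replicate block lost or changed no call among the 9 at 5 months, and over time it added Cebpa in WT (-0.28, adjusted p = 0.0189 by edgeR) and Cebpb in KO (0.52, adjusted p = 0.0498 by edgeR), where the numbers were not taken to pair libraries.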
